A study of Mus musculus with 8 samples.

Results

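The metallothionein, peroxidase and ferritin genes described here are Mt1, Mt2, Gpx1, Gpx3, Txnip, Fth1 and Ftl1. They were taken by symbol from a table of single cells of the pubertal mouse mammary gland, and all 7 were found among its 14883 gene lines. The cells came from ducts and terminal end buds micro-dissected from mammary glands of mice of mixed strain at 5 weeks of age, were sorted live into wells and were read by SORT-seq, an automated CEL-seq2 method that counts tagged transcripts from the 3′ end of messenger RNA. The 8 libraries were 2 plates of 4 libraries each, and each library held 96 wells that reuse the same well barcodes. No library carried a treatment or an engineered allele in the labels, and which library holds duct cells, end bud cells or the cells of a given mouse was not in the labels used here. Libraries were therefore treated as replicates, so a p-value reflects only variation between libraries, part of which may be technical. That variation was estimated partly over all genes together, so a small p-value alone does not show how steady a gene was between libraries.

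Of 768 wells, 121 held at least 1500 transcripts without spike-ins and 114 of these also held at least 500 genes. Each of the 114 was called basal where Acta2, Tagln and Myl9 together exceeded Krt8, Krt18 and Krt19, and luminal in the reverse case. Luminal cells were called hormone-sensing where Prlr exceeded Trf and secretory otherwise. This gave 66 basal, 14 hormone-sensing and 28 secretory cells, and 6 cells with tied sums were left without a class. None of the 8 genes of the rule is among the 7 genes reported. Basal cells carried a median of 13450.5 transcripts, hormone-sensing cells 17924 and secretory cells 7102.5.

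The classes were unevenly spread over libraries. Libraries 2 and 4 of both plates held basal cells (8, 7, 31 and 18 cells) and no luminal cell, and libraries 1 and 3 held all 42 luminal cells and 2 basal ones. Basal and luminal cells therefore differed in library as well as in class, and these cannot be told apart. Hormone-sensing and secretory cells were compared within library 3 of plate 1 and libraries 1 and 3 of plate 2, which each held at least 3 cells of both. In 15 of the 114 cells the markers of a non-epithelial type outnumbered all epithelial markers together. These comprised 8 basal cells, 1 secretory cell and the 6 cells without a class, all on plate 1, with 5 among the 8 basal cells of library 2 of plate 1. Fabp4 led in 7 of the 15, with Adipoq at 0 in each and endothelial marker sums of 1 to 60 transcripts. On plate 1, the basal marker list (8 genes, Krt5 and Krt14 among them) summed to 15.3 and 33.0 transcripts per 10000 in the basal cells of libraries 2 and 4, against 37.9 and 50.1 on plate 2. With those cells left out, library 2 of plate 1 had too few basal cells to enter, and values without them are given beside the results.

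Metallothioneins are small cysteine-rich proteins that bind zinc and copper and buffer these metals, and their genes are switched on by metals through the factor MTF1 and by glucocorticoids. Glutathione peroxidases are selenium enzymes that reduce peroxides, Gpx1 inside cells and Gpx3 as a secreted form. Txnip encodes an inhibitor of thioredoxin that also restrains glucose uptake and whose transcription follows glucose. Fth1 and Ftl1 encode the heavy and light chains of ferritin, the shell that stores iron, and their translation is held back by iron regulatory proteins when iron is scarce.

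The metallothionein pair is shown by its upstream sequence because the copies are neighbours and were both higher in hormone-sensing than in secretory cells. Mt2 lies on chromosome 8 at 94172664 to 94173568 and Mt1 at 94179082 to 94180327, both on the plus strand and 5513 bp apart (GENCODE M21 annotation, GRCm38). The lines below come from RefSeq promoter windows (GRCm38.p6, plus strand, chr8:94172368-94172617 for Mt2 and chr8:94178839-94179081 for Mt1). The Mt2 line ends just before the RefSeq start, which lies upstream of the GENCODE start, and the Mt1 line just before the GENCODE start. Capitals mark metal response cores, searched as TGCACNC and TGCGCNC on both strands.
Mt2: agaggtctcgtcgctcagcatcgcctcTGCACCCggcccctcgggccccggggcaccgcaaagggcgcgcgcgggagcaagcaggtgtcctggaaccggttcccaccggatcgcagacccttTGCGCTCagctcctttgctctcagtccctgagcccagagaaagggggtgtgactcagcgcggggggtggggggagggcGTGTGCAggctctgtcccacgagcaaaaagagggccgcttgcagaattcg
Mt1: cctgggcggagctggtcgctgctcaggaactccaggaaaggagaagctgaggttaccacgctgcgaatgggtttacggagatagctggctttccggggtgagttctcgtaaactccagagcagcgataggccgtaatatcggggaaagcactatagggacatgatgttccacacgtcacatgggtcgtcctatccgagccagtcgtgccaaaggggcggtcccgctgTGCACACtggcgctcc
The Mt2 window held 3 cores and the Mt1 window 1. Cores outside the windows were not counted, so these numbers depend on where each window ends and do not give all cores of a gene. Of 32851 promoter windows of the RefSeq table, 21.4% held at least 1 such core and 1.26% held 3 or more. The full Mt2 window also held 1 antioxidant response core (TGACNNNGC), found in 10.2% of windows, and Txnip held 1 metal response core. The windows of Gpx1, Gpx3, Fth1 and Ftl1 held neither motif, and no window of the 7 genes held the E-box CACGTG, present in 6.02% of all windows. A match is a run of letters and was not tested for binding.

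Mt2 was highest in hormone-sensing cells in each of the 3 libraries that could be compared. In hormone-sensing cells it stood at 17.0 transcripts per 10000 in library 3 of plate 1, 6.58 in library 1 of plate 2 and 19.1 in library 3 of plate 2. Secretory cells of those libraries held 0.265, 0 and 1.49 per 10000, where the 0 of 12378 transcripts allows up to 2.42. Secretory cells were thus lower in every pair, and the groups did not overlap. Mt2 rose by 4.35 ± 0.65 (log2 change ± SE) from secretory to hormone-sensing cells (edgeR quasi-likelihood test with library as block, adjusted p = 2.73e-09, n = 3 pairs). Pooled over libraries, 428 against 19 transcripts gave a 13.7-fold ratio (95% counting interval 8.67 to 23.0). Without library 1 of plate 2 the change was 4.27 (SE 0.62), near the 4.35 of all pairs, and the adjusted p was 0.0529. That fit called 24 of 1990 genes, against 304 of 2458 with all 3 pairs. The loss was thus not particular to Mt2. With only sums of at least 5 cells and no block, 1 hormone-sensing sum (library 1 of plate 2) stood against 3 secretory sums, among them that of library 1 of plate 1, and the change was 0.19 (adjusted p = 0.955); the lone sum is assumed there to vary like the others.

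**Figure D1:**
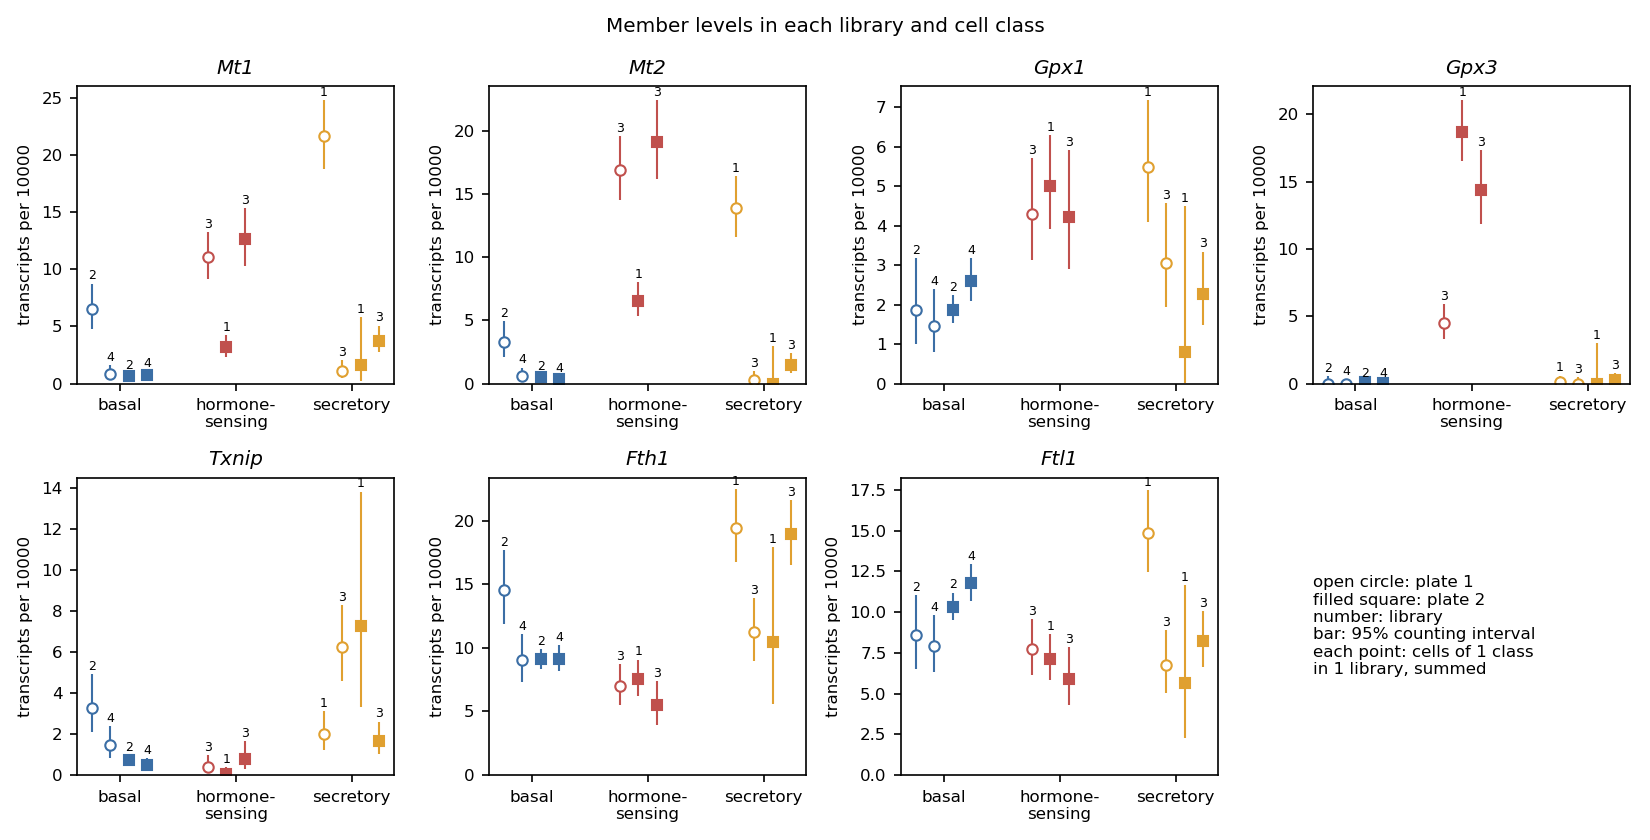
Transcripts per 10000 (linear axis) of each gene in the summed cells of 1 class in 1 library; circles are plate 1, squares plate 2, small numbers the library and bars exact 95% counting intervals, for sums of at least 3 luminal or 5 basal cells. Gpx3 lies between 4.47 and 18.7 in hormone-sensing cells and at or below 0.263 elsewhere, and 1 secretory sum (plate 1, library 1) stands far above the other secretory sums for Mt1 and Mt2.

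Basal cells held little Mt2. Its levels were 3.28 and 0.579 per 10000 in libraries 2 and 4 of plate 1 and 0.494 and 0.341 in those of plate 2. All 4 lay below the 3 hormone-sensing values. All 23 transcripts behind the highest came from 1 cell led by fibroblast markers, and with such cells left out basal Mt2 was 0.481 ± 0.134 (SD, n = 3) against 1.17 ± 1.41 (n = 4) with them. Mt2 rose by 3.89 ± 0.70 from basal to hormone-sensing cells (edgeR, adjusted p = 0.00108), a pooled ratio of 20.5 (95% counting interval 15.9 to 26.8). This call was kept under all 19 alternatives run, with changes from 3.15 to 5.01, and was 4.89 with other-type cells left out. Against all luminal cells, which held 14.9, 10.1, 6.06 and 8.68 per 10000 in libraries 1 and 3 of plates 1 and 2, basal Mt2 fell by 3.41 on the log2 scale (SE 0.63, adjusted p = 0.00195). That call was lost when the deepest cell of each sum was left out (-1.91, adjusted p = 0.153), on plate 1 alone (-2.77, adjusted p = 0.0664) and with library as block (adjusted p = 0.0662). In that last fit the basal side was 1 cell in each of 2 libraries, both with 0 Mt2 transcripts, so it gives no fold.

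Mt1 had a less steady pattern. Hormone-sensing cells held 11.1, 3.22 and 12.6 per 10000 in library 3 of plate 1 and libraries 1 and 3 of plate 2. The secretory cells beside them held 1.06, 1.62 and 3.77, lower in each pair, although the ranges of the groups overlapped. Mt1 rose by 2.02 ± 0.60 in hormone-sensing cells (edgeR, adjusted p = 0.00841), with a pooled ratio of 3.04 (95% counting interval 2.26 to 4.17). Without library 3 of plate 1 the change was 1.44 (adjusted p = 0.624), and without library 1 of plate 2 it was 2.25 (adjusted p = 0.0943). It was 1.76 without the library block (adjusted p = 0.0714) and 1.60 with sums of a single cell admitted (adjusted p = 0.0691), and 2.16 without the filter on low counts (adjusted p = 0.114). With at least 5 cells per sum and no block it was -1.60 (adjusted p = 0.57), where the hormone-sensing side was 1 sum, that of library 1 of plate 2, and the 3 secretory sums included that of library 1 of plate 1.

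**Figure D2:**
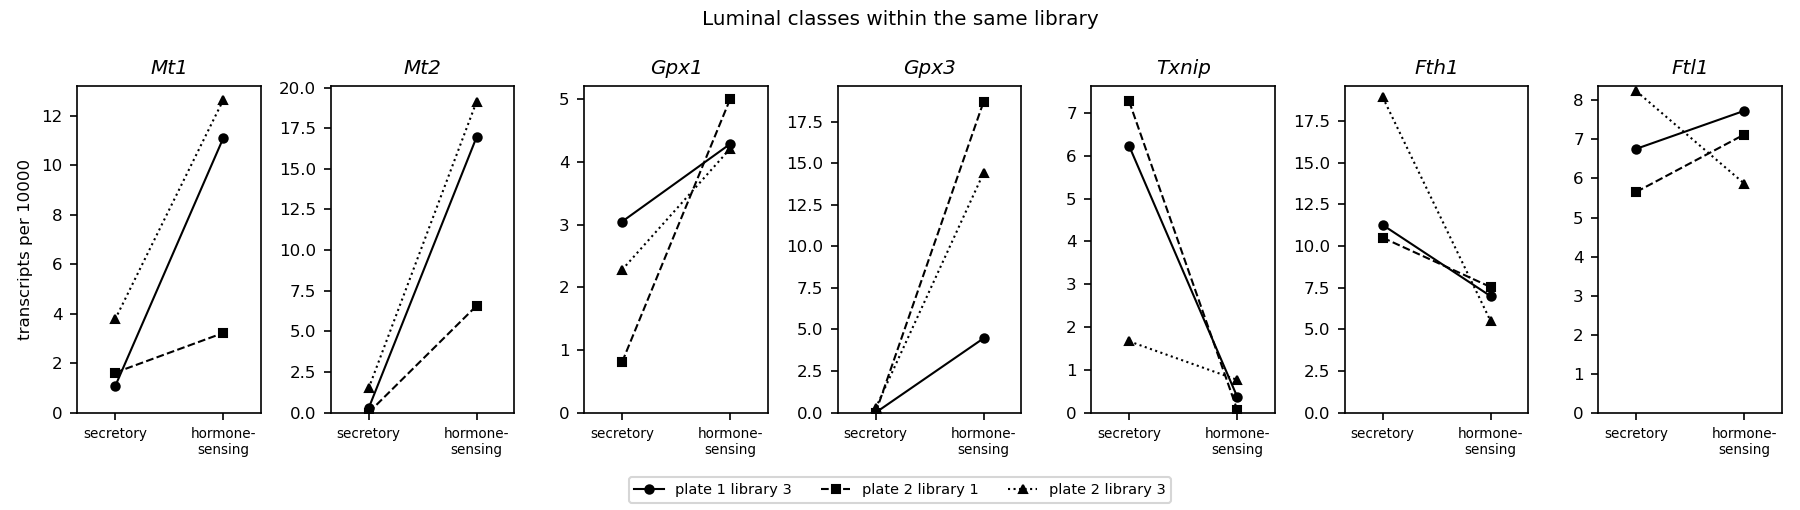
Transcripts per 10000 (linear axes from 0) of each gene in secretory and hormone-sensing cells of the same library; each line joins the sums of 1 library. Mt1, Mt2, Gpx1 and Gpx3 are higher and Txnip and Fth1 lower in hormone-sensing cells in all 3 libraries, while Ftl1 goes both ways.

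The secretory cells of library 1 of plate 1, which had only 1 hormone-sensing cell beside them and so did not enter the paired fit, held 21.7 Mt1 and 13.9 Mt2 transcripts per 10000. One cell of 45824 transcripts carried 198 of the 206 Mt1 transcripts and 130 of the 132 Mt2 transcripts there. The lone hormone-sensing cell of that library, of 5968 transcripts, held 40 Mt1 and 18 Mt2 transcripts. In the same library the 77 wells with fewer than 500 transcripts held Mt1 at 35.5 per 10000 and Mt2 at 18.3, against 1.58 to 6.70 and 0 to 4.78 in such wells of the other 7 libraries. The high secretory value thus came almost wholly from 1 cell of 1 library, and the part of free RNA in it was not tested.

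A like case was seen among basal cells. Their Mt1 levels were 6.57 and 0.869 per 10000 in libraries 2 and 4 of plate 1 and 0.699 and 0.767 in those of plate 2. In library 2 of plate 1, 1 cell carried 43 of 46 Mt1 transcripts and all 23 Mt2 transcripts. That cell held 91 fibroblast marker transcripts against 10 of the epithelial markers and rule genes. With cells led by another cell type's markers left out, basal Mt1 was 0.793 ± 0.109 per 10000 (SD, n = 3), against 2.23 ± 2.90 (SD, n = 4) with them.

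The Mt1 comparisons with basal cells moved with library 2 of plate 1, with the other libraries and cells that entered, and with the model. With all cells, hormone-sensing cells differed from basal cells by 2.17 ± 0.77 (edgeR, adjusted p = 0.0611), secretory cells by 1.96 ± 0.87 (adjusted p = 0.151), and basal cells from luminal cells by -2.45 ± 0.80 (adjusted p = 0.0581). Without that library the changes were 3.46 (adjusted p = 7.87e-05), 3.39 (adjusted p = 0.00609) and -3.77 (adjusted p = 0.00142). With the cells led by other markers left out they were 3.48 (adjusted p = 9.43e-05), 3.42 (adjusted p = 0.00589) and -3.78 (adjusted p = 0.00163). Leaving out library 1 of plate 1 gave -1.68 for basal against luminal cells (adjusted p = 0.13), and leaving out the deepest cells -0.85 (adjusted p = 0.617). Over the fits with 1 library left out, the secretory change from basal cells ran from 0.38 to 3.39 (adjusted p = 0.00609 to 0.819). Without library 1 of plate 2 the difference of basal from luminal cells was -2.83 (adjusted p = 0.0186) and that of hormone-sensing from basal cells 2.57 (adjusted p = 0.0453). With all cells kept, these 2 comparisons also passed with plate as covariate (-2.50, adjusted p = 0.00983, and 2.63, adjusted p = 0.0201), with DESeq2 (-2.29, adjusted p = 0.0282, and 1.99, adjusted p = 0.044) and on plate 2 alone (-2.82, adjusted p = 0.0072, and 3.25, adjusted p = 0.00117). Without the filter on low counts both passed as well (adjusted p = 2.76e-06 and 5.4e-07), as did secretory against basal cells (adjusted p = 0.000975), which also passed on plate 2 alone (adjusted p = 0.000504). Mt2 did not pass the filter on low counts between secretory and basal cells. A fit of every gene gave 2.16 ± 0.49 (adjusted p = 0.000403), with 151 against 70 transcripts. Of those 151, 130 came from 1 cell of library 1 of plate 1, and the groups overlapped. Secretory cells of the other libraries held 0.265, 0 and 1.49 Mt2 transcripts per 10000, against 0.341 to 3.28 in basal cells.

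The metallothioneins were found together in hormone-sensing cells and in unequal amounts. Of 14 such cells, 12 held both, 1 held Mt2 alone and 1 neither, and Mt2 exceeded Mt1 in 10. Both were found in 10 of 28 secretory cells, where Mt2 exceeded Mt1 in none, and in 10 of 66 basal cells, where it did so in 4. The ratio of Mt2 to Mt1 transcripts was 1.53, 2.04 and 1.52 in hormone-sensing cells of the 3 libraries. It ran from 0.444 to 0.707 over the 4 basal sums and from 0 to 0.641 over the 4 secretory sums, below every hormone-sensing value, while the lone hormone-sensing cell of library 1 of plate 1 had 0.45. Spearman's rho of Mt1 against Mt2 over cells was 0.90 in hormone-sensing, 0.63 in secretory and 0.48 in basal cells; depth is shared by both genes of a cell, so these are descriptions. The genes are close paralogs, and how reads that match both were assigned is not given in the sources used here.

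**Figure D3:**
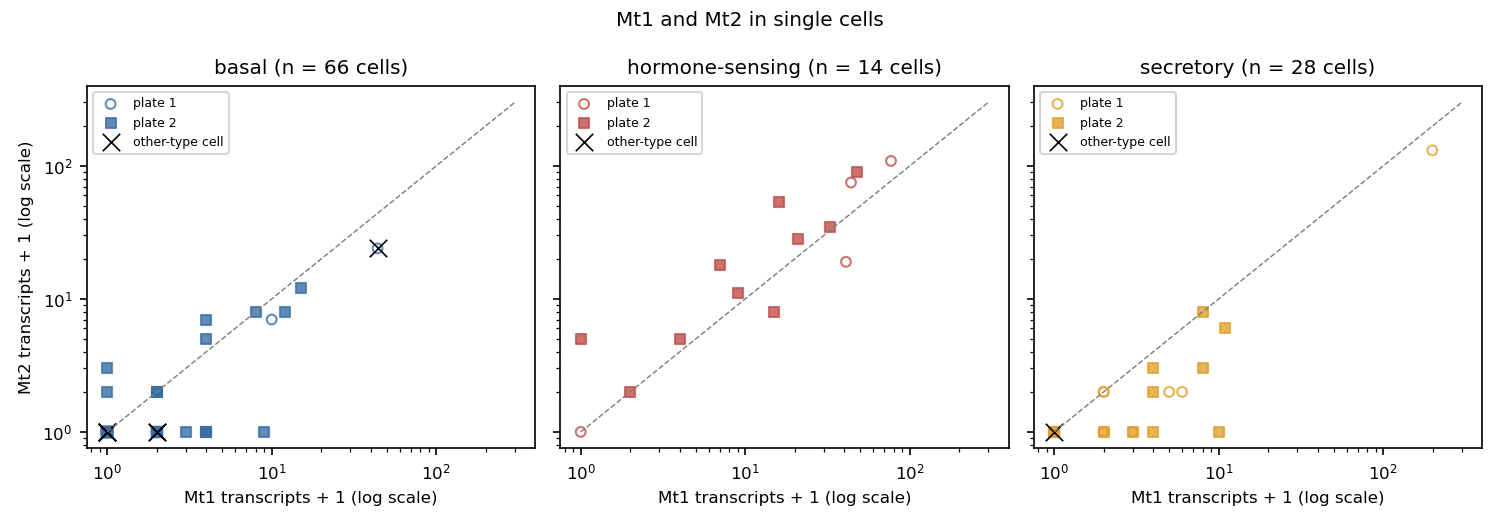
Mt1 against Mt2 transcripts per cell (each plus 1, log axes) by class; circles are plate 1, squares plate 2, crosses mark cells led by another cell type's markers, and the dashed line marks equal numbers. Hormone-sensing cells lie mostly above the line (10 of 14), secretory cells on or below it (0 of 28 above), and the highest secretory and basal points are single cells of plate 1.

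The share of cells with a transcript followed the same order at equal depth. After every cell was thinned to 1500 transcripts, Mt2 was found in 10 of 14 hormone-sensing cells (71.4%, exact 95% interval 41.9 to 91.6%), 4 of 28 secretory cells (14.3%, 4.03 to 32.7%) and 2 of 66 basal cells (3.03%, 0.369 to 10.5%). Unthinned, the numbers were 13, 10 and 12 cells. Mt1 was found in 9, 12 and 7 thinned cells of the 3 classes. Wells with fewer than 500 transcripts, used here as a measure of background, held 6.49 Mt1 and 3.60 Mt2 transcripts per 10000 when pooled, above the basal values outside library 2 of plate 1 and below the hormone-sensing values of both plates' library 3. All intervals cover counting error only.

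**Figure D4:**
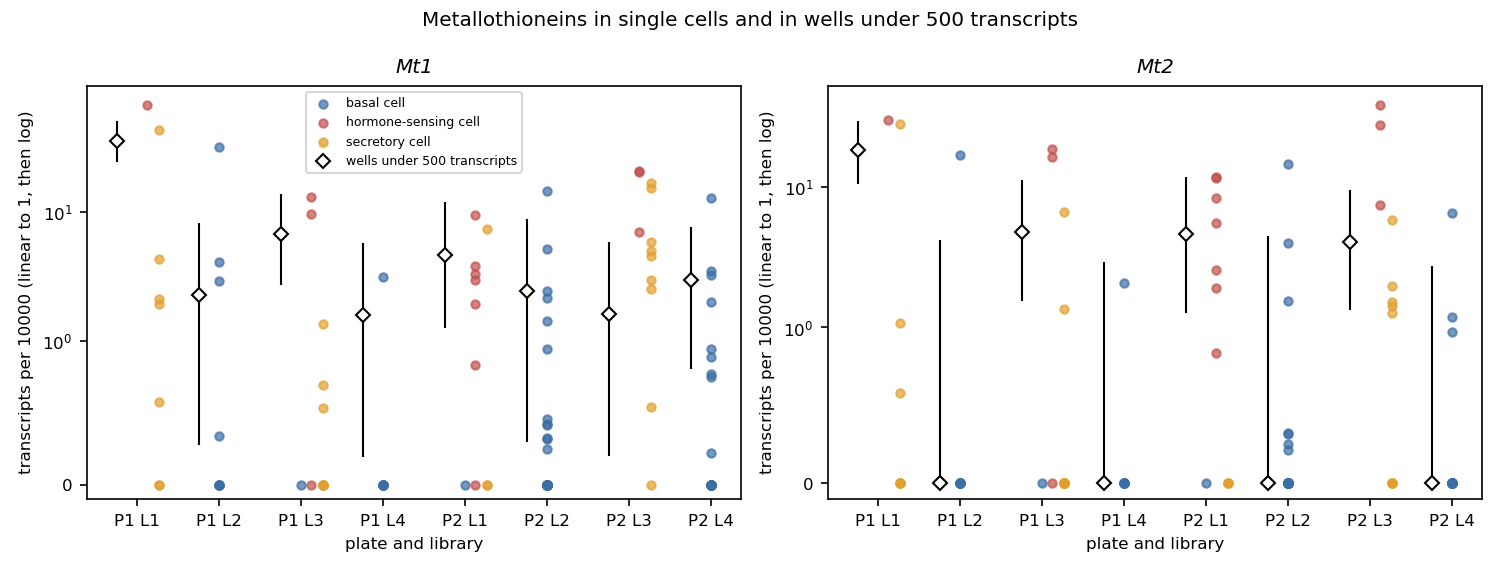
Mt1 and Mt2 per 10000 transcripts in single cells (dots, by class) and in pooled wells with fewer than 500 transcripts (diamonds with exact 95% intervals) for each plate (P) and library (L), on an axis that is linear up to 1 and logarithmic above. Library 1 of plate 1 has the highest low-well values, 35.5 for Mt1 and 18.3 for Mt2.

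Gpx3, the secreted glutathione peroxidase, was nearly restricted in these counts to cells of the hormone-sensing class. It stood at 4.47, 18.7 and 14.4 transcripts per 10000 in hormone-sensing cells of library 3 of plate 1 and libraries 1 and 3 of plate 2. Secretory cells of the same libraries held 0, 0 and 0.263, and those of library 1 of plate 1 held 0.105. Basal cells held 0 in both plate 1 libraries and 0.0852 and 0.0284 in libraries 2 and 4 of plate 2. No basal or secretory value came near the lowest hormone-sensing value. Gpx3 rose by 6.08 ± 0.81 against secretory cells (edgeR, adjusted p = 8.21e-12) and by 7.76 ± 0.66 against basal cells (adjusted p = 6.6e-06). The pooled ratios were 88.1 for 434 against 3 transcripts (95% counting interval 29.9 to 429) and 243 for 434 against 6 transcripts (111 to 665).

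The Gpx3 difference from basal cells kept its call under all 17 alternatives run, with changes from 7.32 to 8.76. The difference from secretory cells ran from 4.04 without the deepest cells to 8.88 without library 3 of plate 2, and lost its call in 1 alternative, without library 1 of plate 2 (5.87, adjusted p = 0.0516). Gpx3 missed the filter in the comparison of all luminal with basal cells (438 against 6 transcripts), and without the filter basal cells fell by 6.78 on the log2 scale (SE 0.65, adjusted p = 2.34e-15).

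Within the hormone-sensing class Gpx3 differed widely from cell to cell. It was found in 12 of 14 cells, at 10 or more transcripts in 8. In library 1 of plate 2, 6 of 7 cells held it, the highest with 94 of the 273 transcripts. In library 3 of plate 2, all 3 cells held it but 1 carried 111 of the 113 transcripts, and without that cell the level was 0.61 per 10000. In library 3 of plate 1 the 3 cells held 3, 19 and 26 transcripts, and the lone hormone-sensing cell of library 1 of plate 1 held none. At equal depth of 1500 transcripts Gpx3 was found in 7 of 14 hormone-sensing cells and in 0 of 28 secretory and 0 of 66 basal cells, which allows shares of up to 10.7% and 4.55%. Wells with fewer than 500 transcripts held 2.52 per 10000 when pooled, and 8.11 in library 1 of plate 2, the library with the highest hormone-sensing level.

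Gpx1, the intracellular glutathione peroxidase, varied less. Hormone-sensing cells held 4.29, 5.00 and 4.21 per 10000 in library 3 of plate 1 and libraries 1 and 3 of plate 2, a mean of 4.50 ± 0.436 (SD, n = 3). Basal cells held 1.86 and 1.45 in libraries 2 and 4 of plate 1 and 1.86 and 2.59 in those of plate 2, a mean of 1.94 ± 0.474 (SD, n = 4), and 1.95 ± 0.589 (n = 3) with other-type cells left out. Every hormone-sensing value lay above every basal value. Gpx1 rose by 1.14 ± 0.28 from basal to hormone-sensing cells (edgeR, adjusted p = 0.00986). Basal cells fell by 1.10 against all luminal cells (SE 0.29, adjusted p = 0.0192), which held 5.55, 3.78, 4.67 and 3.07 per 10000. Secretory cells spread from 0.808 to 5.47, and neither their difference from hormone-sensing cells (0.81 ± 0.59, adjusted p = 0.49) nor that from basal cells (0.78 ± 0.41, adjusted p = 0.229) passed the threshold.

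The Gpx1 calls were near the threshold. Between hormone-sensing and basal cells the call was lost without library 1 of plate 2 (1.04, adjusted p = 0.059), without library 2 of plate 2 (1.05, adjusted p = 0.0538) and on plate 2 alone (0.94, adjusted p = 0.0552). On plate 1 alone, with 1 hormone-sensing sum against 2 basal sums, the change was 1.33 (adjusted p = 0.503). Between basal and luminal cells it was lost without library 4 of plate 1 (-0.96, adjusted p = 0.0713), without library 2 of plate 2 (-1.07, adjusted p = 0.0764) and within plate 1 or plate 2 alone (-1.52, adjusted p = 0.159, and -0.77, adjusted p = 0.171). It was also lost without the deepest cells (-0.93, adjusted p = 0.081) and with library as block, where single cells formed the basal side (adjusted p = 0.618).

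Txnip, the thioredoxin inhibitor, ran opposite to the metallothioneins among luminal cells. Secretory cells held 6.23, 7.27 and 1.67 per 10000 in library 3 of plate 1 and libraries 1 and 3 of plate 2, and 2.00 in library 1 of plate 1. Hormone-sensing cells of the 3 shared libraries held 0.373, 0.0685 and 0.766, lower in each pair. Txnip fell by 3.67 on the log2 scale from secretory to hormone-sensing cells (SE 0.70, edgeR, adjusted p = 4.35e-06), with 11 against 75 transcripts, an 11.2-fold ratio (95% counting interval 5.91 to 23.4). Without library 1 of plate 2 the change was -2.86 (adjusted p = 0.15).

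Few cells carried most of the Txnip transcripts. In library 1 of plate 2 all 9 secretory Txnip transcripts came from 1 of 3 cells, and in library 3 of plate 2, 17 of 19 came from 1 of 9. In library 3 of plate 1, 8 of 9 secretory cells held it. Without the highest secretory cell of each, the secretory level was 4.60 per 10000 in library 3 of plate 1, and 0 and 0.196 in libraries 1 and 3 of plate 2, where the hormone-sensing levels were 0.0685 and 0.766, so that the order held in the first of these libraries and turned in the other two. Basal cells held 3.28 and 1.45 per 10000 in libraries 2 and 4 of plate 1 and 0.716 and 0.512 in those of plate 2, with a mean of 0.849 ± 0.419 (SD, n = 3) when other-type cells were left out. The secretory level differed from the basal one by 1.61 ± 0.62 (edgeR, adjusted p = 0.0915), and by 2.35 with cells led by other markers left out (adjusted p = 0.00397) or 2.28 without library 2 of plate 1 (adjusted p = 0.00632). Without library 3 of plate 2 it was 1.95 (adjusted p = 0.0453). Txnip missed the filter between hormone-sensing and basal cells, where 11 against 98 transcripts gave -1.94 ± 0.57 without the filter (adjusted p = 0.00831). The levels overlapped, as the 0.766 of hormone-sensing cells in library 3 of plate 2 lay above both basal values of that plate.

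The ferritin genes were the most widely detected of the 7. Before thinning, Fth1 was found in 65 of 66 basal, 13 of 14 hormone-sensing and 28 of 28 secretory cells, and Ftl1 in 62, 14 and 26. Fth1, the heavy chain, stood at 14.6 and 9.08 per 10000 in basal cells of libraries 2 and 4 of plate 1 and at 9.12 and 9.15 on plate 2. Hormone-sensing cells held 6.99, 7.54 and 5.49, all below the basal values. Secretory cells held 19.5 and 11.3 in libraries 1 and 3 of plate 1 and 10.5 and 18.9 in those of plate 2. The order of the class means was secretory (15.0 ± 4.82, SD, n = 4), basal (10.5 ± 2.72, n = 4) and hormone-sensing (6.67 ± 1.06, n = 3), and secretory and basal values overlapped. With other-type cells left out basal Fth1 was 9.10 ± 0.0651 (n = 3) and basal Ftl1 10.01 ± 1.95 (n = 3).

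No Fth1 comparison passed the threshold. The change was -1.13 ± 0.48 from secretory to hormone-sensing cells (edgeR, adjusted p = 0.11), -0.70 ± 0.27 from basal to hormone-sensing cells (adjusted p = 0.0871) and 0.58 ± 0.31 from basal to secretory cells (adjusted p = 0.236). Both highest secretory values came from single cells: 1 cell of library 1 of plate 1, the same that carried the metallothioneins, held 139 of 185 Fth1 transcripts, and 1 cell of library 3 of plate 2 held 160 of 216. With the deepest cell of each sum left out, the secretory difference from basal cells turned to -0.49, and thinned cells gave -0.28. Without library 2 of plate 1 it was 0.83 (adjusted p = 0.0468), and with other-type cells left out 0.83 (adjusted p = 0.0443). Without the library block the fall in hormone-sensing cells was -1.21 with an adjusted p of 0.0475.

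Ftl1, the light chain, differed least between classes. Basal cells held 8.57 and 7.92 per 10000 on plate 1 and 10.3 and 11.8 on plate 2, hormone-sensing cells 7.73, 7.13 and 5.87, and secretory cells 14.8, 6.76, 5.66 and 8.24. Hormone-sensing values lay below all basal values, by a change of -0.54 ± 0.24 (edgeR, adjusted p = 0.138). The other Ftl1 changes were -0.16 ± 0.51 between luminal classes (adjusted p = 0.929), -0.04 ± 0.33 from basal to secretory cells (adjusted p = 0.946) and 0.11 ± 0.28 from luminal to basal cells (adjusted p = 0.86). Heavy to light chain transcripts stood at 1.78 ± 0.411 (SD, n = 4) in secretory cells, 1.13 ± 0.413 (n = 4) in basal cells and 0.965 ± 0.0815 (n = 3) in hormone-sensing cells. Every secretory ratio (1.31 to 2.30) exceeded every hormone-sensing ratio (0.904 to 1.06), and the basal ratios (0.778 to 1.70) overlapped both. Single cells weighed on the secretory ratios. With the cell highest in both genes left out, secretory Fth1 and Ftl1 stood at 9.35 and 12.6 per 10000 in library 1 of plate 1. In library 3 of plate 2 they stood at 7.51 and 8.32, so that the light chain exceeded the heavy chain in each. The ratio in library 1 of plate 2 was that of 13 to 7 transcripts. Ferritin and Gpx1 have processed copies elsewhere in the genome, so that reads shared with those copies make their counts uncertain.

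Over the 7 genes, 4 of 7 tested passed the threshold between hormone-sensing and secretory cells (Mt1, Mt2 and Gpx3 higher, Txnip lower), where 12.4% of all 2458 tested genes did, 5.17% higher and 7.2% lower. Between hormone-sensing and basal cells 3 of 6 passed, all higher, against 24.5% of all genes, 11% higher and 13.6% lower. Between basal and luminal cells 2 of 6 passed, both lower, against 14.8% of all genes, 6.7% lower and 8.07% higher. Between secretory and basal cells 0 of 5 passed in edgeR, with 2 at an unadjusted p under 0.05, against 16.4% of all genes, 7.08% higher and 9.29% lower. The members' median log2 change was 0.81, 1.65, -0.75 and 0.78 in these comparisons, and that over all tested genes 0.11, -0.05, 0.00 and -0.08. The comparisons share sums of the same cells and are not independent of each other.

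**Figure D5:**
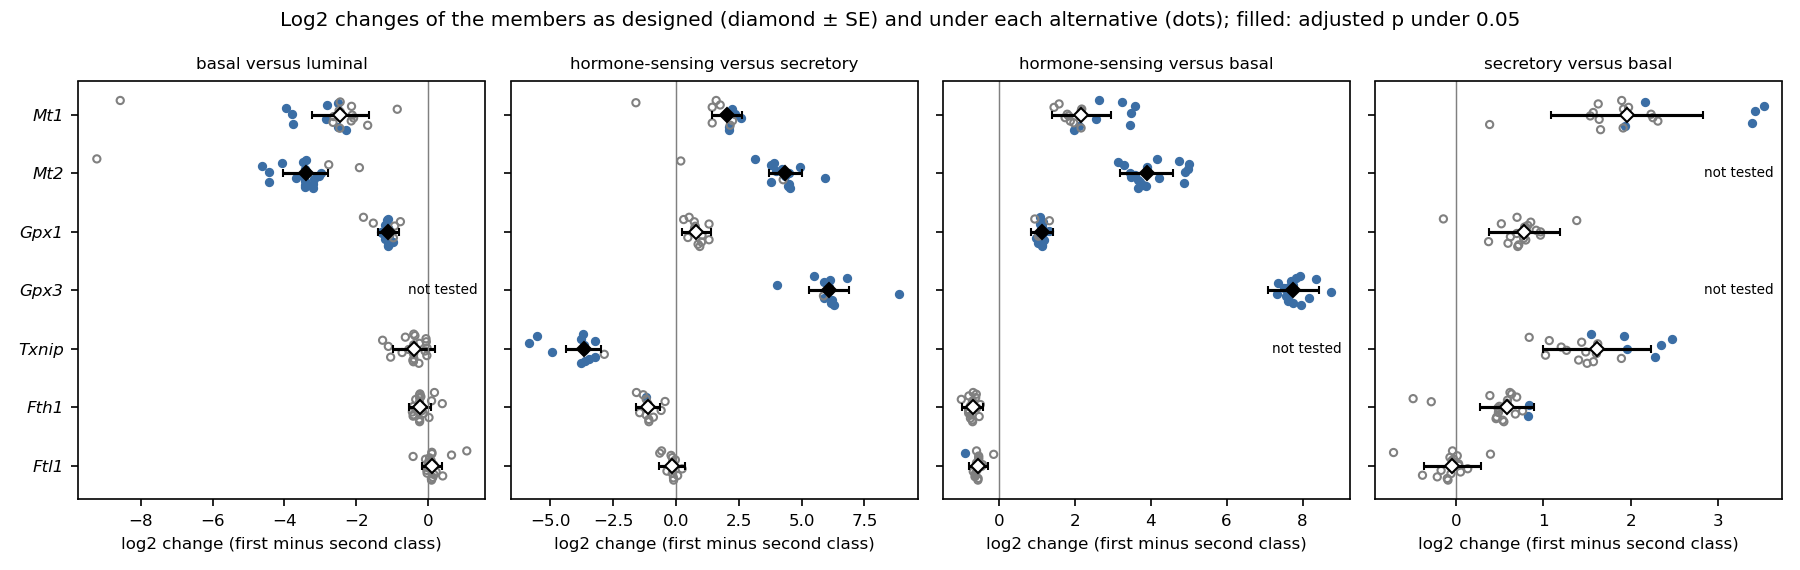
Log2 change of each gene (first class minus second) in 4 comparisons: diamonds with bars are the designed fit ± SE, dots the alternative fits, filled where the adjusted p was under 0.05. Gpx3 and Mt2 in hormone-sensing against basal cells stay filled throughout, and Mt1 against basal cells changes between open and filled. Fth1 stays below 0 in hormone-sensing against both other classes, from -1.58 to -0.44 and from -0.99 to -0.49, and Ftl1 takes both signs in 3 of the 4 comparisons.

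Plates were compared with class, basal or luminal, in the fit, which does not adjust for the mix of hormone-sensing and secretory cells. Libraries 1 and 3 held 1 and 3 hormone-sensing and 7 and 9 secretory cells on plate 1. On plate 2 they held 7 and 3 hormone-sensing and 3 and 9 secretory cells. Plate and luminal mix therefore cannot be told apart in these values. No gene of 4155 passed (edgeR, 0%; 232 at an unadjusted p under 0.05; DESeq2 called 3), and none of the 7 did, with 4 at an unadjusted p under 0.05. Without the filter on low counts Mt1 (-1.73, adjusted p = 0.000149) and Gpx3 (2.95, adjusted p = 8.09e-06) were called. Plate 2 differed from plate 1 by -1.92 ± 0.57 for Mt1, -1.33 ± 0.46 for Mt2, -1.60 ± 0.38 for Txnip and 2.95 ± 0.78 for Gpx3 (adjusted p = 0.669, 0.799, 0.669 and 0.669). A test of whether the difference between basal and luminal cells itself changed with the plate called 0 of 5031 genes (edgeR, 221 at an unadjusted p under 0.05), and the adjusted p of each of the 7 was 1.00.

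Other genes of metal, iron, glutathione, thioredoxin and NRF2 handling were read from a list of 85 names, 79 of them in the table. Between hormone-sensing and secretory cells 35 were tested, 2 rose and 7 fell, with a median log2 change of 0.10; over all genes 5.17% rose and 7.2% fell, with a median of 0.11. G6pdx, which supplies NADPH in the pentose phosphate pathway, rose by 3.97 ± 0.86 (edgeR, adjusted p = 8.33e-05), and Gclc, the catalytic subunit of the enzyme that starts glutathione synthesis, by 2.33 ± 0.71 (adjusted p = 0.0107). Lcn2, which binds iron-carrying siderophores, fell by 5.57 (adjusted p = 1.08e-25), and Sepp1, a selenium transport protein, fell by 5.10 (adjusted p = 1.71e-07). Cp, the copper oxidase ceruloplasmin, fell by 4.89 (adjusted p = 3.41e-11), and Mgst1, a membrane glutathione transferase, fell by 4.23 (adjusted p = 1.25e-11). The metal importer Slc39a14 fell by 2.73 (SE 0.81, adjusted p = 0.00911). Just past the threshold, the peroxide-degrading enzyme Cat fell by 2.94 (SE 1.04, adjusted p = 0.0419). Arrdc3, a relative of Txnip, fell by 3.10 (SE 1.13, adjusted p = 0.0499). Closest to the threshold without passing were the copper chaperone Atox1 (2.24 ± 0.84, adjusted p = 0.059) and the autophagy receptor Sqstm1 (1.43 ± 0.64, adjusted p = 0.15). Without library 1 of plate 2 the calls of G6pdx, Gclc, Sepp1, Cp and Mgst1 were lost (adjusted p = 0.149, 0.115, 0.0529, 0.0657 and 0.0519), as were that of G6pdx without library 3 of plate 2 (0.108) and that of Gclc without library 3 of plate 1 (0.736); each kept its direction.

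The secretory genes of the list also stood apart from basal cells. Of 20 tested there, 4 rose and 2 fell (median 0.00), against 7.08% and 9.29% of all genes. Cp rose by 4.36 ± 0.59, Mgst1 by 3.42 ± 0.41, Lcn2 by 3.23 ± 0.39 and Sepp1 by 1.77 ± 0.54. The zinc importer Slc39a10 fell by 4.14 and the thioredoxin reductase Txnrd1 by 1.47 on the log2 scale. The selenoprotein gene Sepw1 (-1.56 ± 0.54, edgeR, adjusted p = 0.0599) and the lipid peroxidase Gpx4 (1.19 ± 0.43, adjusted p = 0.0693) came closest among the rest, and passed without library 3 of plate 1 (0.0314) and library 2 of plate 1 (0.0121). The Sepp1 call was lost without libraries 1 or 4 of plate 1 or libraries 2, 3 or 4 of plate 2 (adjusted p = 0.0814 to 0.169), and that of Txnrd1 without library 1 of plate 1 or libraries 2, 3 or 4 of plate 2 (0.0534 to 0.102).

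Between hormone-sensing and basal cells 30 were tested, 4 rose and 3 fell (median 0.31), 23.3% in all, near the 24.5% of all genes. G6pdx rose by 3.39 ± 0.45, Gclc by 3.28 ± 0.51 and the peroxiredoxins Prdx3 and Prdx5, thiol peroxidases, by 1.34 ± 0.41 and 1.27 ± 0.35. Gpx8, a glutathione peroxidase of the endoplasmic reticulum, had 0 transcripts in the tested hormone-sensing sums and 110 in the basal sums. The exact 95% counting interval of that ratio reached up to 0.114. Lcn2 fell by 2.28 and Sepw1 by 1.47. Slc39a10 (-1.39 ± 0.48, edgeR, adjusted p = 0.0556) and Prdx1 (0.65 ± 0.25, adjusted p = 0.0871) lay closest to the threshold without passing, and Slc39a10 passed without library 3 of plate 1 (0.0153). The Prdx3 call was lost without any 1 library but library 2 of plate 1 (adjusted p = 0.0579 to 0.172), that of Prdx5 without libraries 3 or 4 of plate 1 or library 2 of plate 2 (0.0574 to 0.0935), and that of Sepw1 without libraries 1, 3 or 4 of plate 2 (0.0522 to 0.0929). The tested hormone-sensing sums were thus high in the secreted peroxidase Gpx3 and had no Gpx8 transcript.

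Between basal and luminal cells 40 were tested, 2 rose in basal cells and 3 fell (median -0.31), 12.5% in all, not above the 14.8% of all genes. Slc39a10 rose by 2.13 ± 0.55 and Sepw1 by 1.54 ± 0.38, and Cp fell by 3.22, Lcn2 by 2.30 and Mgst1 by 2.26. Txnrd1 (0.94 ± 0.31, edgeR, adjusted p = 0.06) and Gpx8 (1.79 ± 0.63, adjusted p = 0.0784) lay next to the threshold, and both passed without library 2 of plate 1 (0.0359 and 0.0392), Gpx8 also without library 1 of plate 1 (0.0184). The Lcn2 call was lost without libraries 1, 3 or 4 of plate 1 or libraries 2 or 4 of plate 2 (adjusted p = 0.0521 to 0.073), and those of Slc39a10 and Sepw1 without library 3 of plate 2 (0.0539 and 0.0507). None of the 47 tested differed between plates.

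The genes most like each of the 7 were read over 11 sums of class and library among 3542 genes with at least 100 transcripts, as a description of sums that share libraries. By Spearman's rho they were Gpx4 (0.89) and Nfe2l1 (0.85) for Mt1, Rgl2 (0.93) and Fam179b (0.92) for Mt2, and Ndufb10 and Sar1b (both 0.91) for Gpx1. For Gpx3 they were Mrpl52 and Nabp1 (both 0.94), and for Txnip Mllt4 (0.89) and Cd81 (0.88). Sepp1 (0.99) and Dbi (0.95) were most like Fth1, and Pfkp (0.98) and Spg21 (0.97) most like Ftl1. Mt1 and Mt2 stood at 0.79 to each other, Mt2 and Gpx3 at 0.74, and Mt2 and Txnip at -0.45.

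Over the 3 libraries with at least 3 cells of both luminal classes, Mt1, Mt2, Gpx1 and Gpx3 were higher and Txnip and Fth1 lower in hormone-sensing cells in each. The share of all genes that keep a direction in all 3 libraries was not counted. Of these genes Mt1, Mt2, Gpx3 and Txnip passed the test. Each of them lost its call without library 1 of plate 2, with its direction kept. Single cells carried the secretory Txnip values of both plate 2 libraries and the Gpx3 value of library 3 of plate 2. Single cells on plate 1 carried the high secretory Mt1 and Mt2 of library 1 and the high basal Mt1 and Mt2 of library 2.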

How the data were processed

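The deposited table gave expected counts, estimated transcript molecules per gene and well after the authors corrected for molecules sharing a tag; of 533078 values above 0, 533073 lie on the scale of a pool of 256 tags of 4 bases within a tolerance of 1e-06, as read from the values. The submitters' processing notes name BWA 0.6.2-r126 and the build mm10; no source used here gives other settings. The highest tag number of a member in a cell was 138 of 256, for Mt1, so its corrected value of 198 carries more error than low counts.

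Counts were rounded to whole numbers, spike-ins left out, and cells summed per library and class, since cells are not replicates. Library totals ran from 101158 to 598625 transcripts. Sums of at least 5 cells (3 for luminal classes) were tested with edgeR 4.0.16 in R 4.3.3 (quasi-likelihood test after TMM scaling and the filterByExpr filter; threshold 0.05 on p adjusted by Benjamini-Hochberg over all tested genes), with library as block between luminal classes, whose pairs come from the same library. Each SE was taken approximately, by dividing the log2 change by the square root of F. Between luminal classes the members' p-values lay close to those of a normal curve, so a gene's own spread over the 3 pairs hardly entered them. Ratios of pooled transcripts have exact conditional intervals, shares Clopper-Pearson intervals. A cell counts as led by another cell type where that type's markers exceed all epithelial markers and rule genes. Doublets were not called.

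On simulated data a log2 change of 2 was recovered for 94% of changed genes between basal and luminal cells (2990 genes run), 33.7% between luminal classes (2124), 87.4% between hormone-sensing and basal cells (2326), 93.9% between secretory and basal cells (1649) and 75.9% between plates (3706). A log2 change of 1 was recovered for 16.2%, 4.76%, 16.1%, 25.3% and 14.6% in the same order. The Gpx1 changes between classes and the Fth1 change between luminal classes were near that size, and the other ferritin changes were smaller. The luminal classes were thus the comparison with the least power.

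The 7 genes are named throughout. Of the list of 85 names, up to 4 genes past the threshold in each direction by size, plus the 2 closest others, are named per comparison; Arrdc3, Cat and Slc39a14, named to complete a count of 7, were added after their values were seen. The members and lists were chosen with earlier results of these data known. Alternatives were DESeq2 1.42.0, its size factors, no filter, each library left out, other cells left out, thinning to 1500 transcripts, wells of at least 1000 transcripts, blocks and covariates. Leaving out the deepest cell, single plates, and other-type cells left out with at least 3 cells per sum were added after seeing the data.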

Additional observations from a re-analysis of the deposited data

Results flagged for a closer look

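In 6 of 21 groups of 4 sums, 1 sum stood apart from the rest by more than the limit that chance passes in about 1 of 20 groups. In basal cells of library 2 of plate 1 these were Mt1 at 6.57, Mt2 at 3.28 and Fth1 at 14.6 transcripts per 10000. That sum held 5 cells led by other cell types' markers of 8, and 1 of them carried 43 of 46 Mt1 transcripts. In secretory cells of library 1 of plate 1 they were Mt1 at 21.7 and Mt2 at 13.9, where 1 cell carried 198 of 206 and 130 of 132 transcripts. Ftl1 in all luminal cells of that library stood at 14.3.

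Wells with fewer than 500 transcripts, which no comparison used, held transcripts of all 7 genes above the 3 that a count of 0 allows. Over 579 such wells there were 54 of Mt1, 30 of Mt2, 21 of Gpx1, 21 of Gpx3, 10 of Txnip, 93 of Fth1 and 99 of Ftl1. Of the 54 Mt1 transcripts, 31 came from library 1 of plate 1.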

How the results depend on the processing

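The number of called genes depended on which cells and libraries entered. Between basal and luminal cells it was 505, and 1513 without the filter, 834 with other-type cells left out, 29 thinned, 226 without the deepest cells, 163 on plate 1, 937 on plate 2, 34 with library as replicate block, and 436 to 845 with 1 library left out. Between hormone-sensing and secretory cells it was 304, and 36 thinned, 120 on plate 2, 197 with at least 5 cells per sum and no replicate block, and 24 to 140 with 1 library left out. Between hormone-sensing and basal cells it was 631, and 1586 without the filter, 26 thinned, 206 without the deepest cells, 289 on plate 1, 1219 on plate 2, and 428 to 795 with 1 library left out. Between secretory and basal cells it was 303, and 1091, 521 (other-type cells out), 32, 135, 147 and 641 in the same order, and 252 to 516 with 1 library left out. Between plates it was 0, and 3 with DESeq2, 133 without the filter, 1 thinned, 1 with library number as replicate block, and 0 to 6 with 1 library left out. Far fewer genes were tested after thinning, 193 against 3420 between basal and luminal cells and 164 against 2458 between luminal classes. Between hormone-sensing and basal cells 156 were tested against 2575, and between secretory and basal cells 165 against 1851. Counts of called genes alone therefore do not compare these fits. The labels give libraries of the same number on both plates no other link. Same-numbered sums correlated at -0.13 for libraries 1 and 3 and at -0.003 for libraries 2 and 4, all negative.

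These log2 changes turned sign. Fth1 between basal and luminal cells was 0.40 thinned, 0.10 without the deepest cells, 0.18 with the library block and -0.43 to 0.032 with 1 library left out. Ftl1 there was -0.066 without the deepest cells, -0.41 on plate 1 and -0.029 to 0.41 with 1 library left out, and Txnrd1 -0.094 with the block. Between luminal classes Mt1 was -1.60 and Sqstm1 -0.21 with at least 5 cells and no block (1 hormone-sensing sum), and Ftl1 0.065 without the filter and -0.36 to 0.24 with 1 library left out. Between secretory and basal cells Gpx1 was -0.14 on plate 2, Fth1 -0.28 thinned and -0.49 without the deepest cells, and Ftl1 0.014 with other-type cells out and at least 3 cells per sum, 0.39 on plate 1 and -0.38 to 0.13 with 1 library left out. Between plates Ftl1 was 0.061 without the filter, 0.28 without the deepest cells and -0.23 to 0.28 with 1 library left out, and Gpx1 -0.11 to 0.29. The cause was not tested. Thinning left 193 genes to test between basal and luminal cells.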
